A study of Zea mays with 6 samples.

Results

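The genes fea2, td1, fea3, ct2 and fea4, which limit the size of inflorescence meristems in maize, were followed in 1 mm tassel meristems of the tassel-less1 (tls1) mutant and of wild type. They were chosen by identifier, Zm00001d051012 for fea2, Zm00001d014793 for td1, Zm00001d040130 for fea3, Zm00001d027886 for ct2 and Zm00001d037317 for fea4, and are 5 of the 45953 features in the deposited count table. Poly-A RNA was sequenced from 3 libraries of tls1 tassel meristems and 3 libraries of WT tassel meristems. Both groups carry the cultivar label B73, a maize inbred line, and both were grown to the V6-V7 stage under 16 h of light and 8 h of dark. Both received fertilizer set to 238 ppm nitrogen, which holds 0.08 ppm boron, so the shared boron supply is part of both groups. The labels call the mutant boron deficient. They do not give its allele or say how many meristems or plants went into a library. The series title asks how boron homeostasis bears on meristem maintenance, and the design places the sampling ahead of visible defects in the mutant.

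A meristem holds a pool of stem cells whose size is set by a feedback loop. In the loop, small CLE peptides are secreted by cells of the meristem, leucine-rich repeat receptors at the cell surface perceive them, and the signal restrains the stem-cell promoting factor WUSCHEL. Loss of any of these maize genes enlarges the meristem, which is seen as a flattened (fasciated) ear and often as a thick tassel. FEA2 is a receptor-like protein without a kinase domain, the counterpart of CLAVATA2 in Arabidopsis. TD1 is a receptor kinase, the counterpart of CLAVATA1 in Arabidopsis. FEA3 is a further leucine-rich repeat receptor, and it senses a CLE peptide made in differentiating organ primordia. CT2 is the alpha subunit of the heterotrimeric G protein and works with FEA2. FEA4 is a bZIP transcription factor, the counterpart of PERIANTHIA in Arabidopsis, and acts at the meristem periphery. The mutated gene of the tls1 line is known to encode a membrane channel that carries boron.

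The count table lists identifiers without names, and the name table used here matched 0 of the 43789 nuclear identifiers. The 5 names therefore rest on the selection of these identifiers. A list of 20 genes, mostly of the pathway and with the mutated gene among them, and 13 marker genes of the tassel were looked up by symbol. Of these, 0 could be tied to a row, and they are not analysed here. The tissue label was thus not checked against its markers. Libraries held between 72498318 and 77619452 counted reads. The first principal component of 23344 tested genes, the 5 genes left out, held 39.5% of the variance, with tls1 1, tls1 2 and WT 2 on one side and tls1 3, WT 1 and WT 3 on the other. Replicate numbers recur in both genotypes, and libraries of 1 number are called pairs below. The labels do not state this pairing, and it is least sure for pair 1. Within each of the 3 pairs the tls1 library scored above the WT library on this component. Scores were 25.4 in tls1 1 against -38.8 in WT 1 and 80.0 in tls1 2 against 40.4 in WT 2. In pair 3 they were -35.0 in tls1 3 and -72.0 in WT 3. The sign of a component is arbitrary. In each pair the tls1 library also lay below the WT library on the second component and above it on the third. Levels are CPM, the count scaled to a fixed total of counted reads per library, which are not corrected for transcript length, so levels are compared between libraries and not between genes. In bulk tissue, fewer cells of a type and less RNA per cell cannot be told apart.

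Genotype was tested by edgeR's quasi-likelihood test over the 23349 features that passed its filter on low counts, with Benjamini-Hochberg adjustment over all of them. All 5 genes passed the filter, the lowest count being 612 (fea3 in tls1 3). With a threshold of 0.05 on the adjusted p, 0 of the 5 genes were called, where 0.00428% of all tested genes (1 of 23349) were called in either direction. At an unadjusted p under 0.05 the count was 1 of the 5, fea2, against 16.5% of all tested genes. By DESeq2 1 of the 5 was called, again fea2, against 5.36% of all tested genes, and by limma-voom 0 of the 5 were called, against 0.00857%. The median log2 fold change, tls1 over WT, was 0.033 over the 5 genes and 0.0067 over all tested genes. The level of fea2 was lower in every tls1 library, by a small amount. The levels of td1, fea3 and fea4 moved together from library to library by up to 2.15-fold, and their genotypes overlapped. The level of ct2 varied by up to 1.28-fold, and its genotypes overlapped as well.

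**Figure D1:**
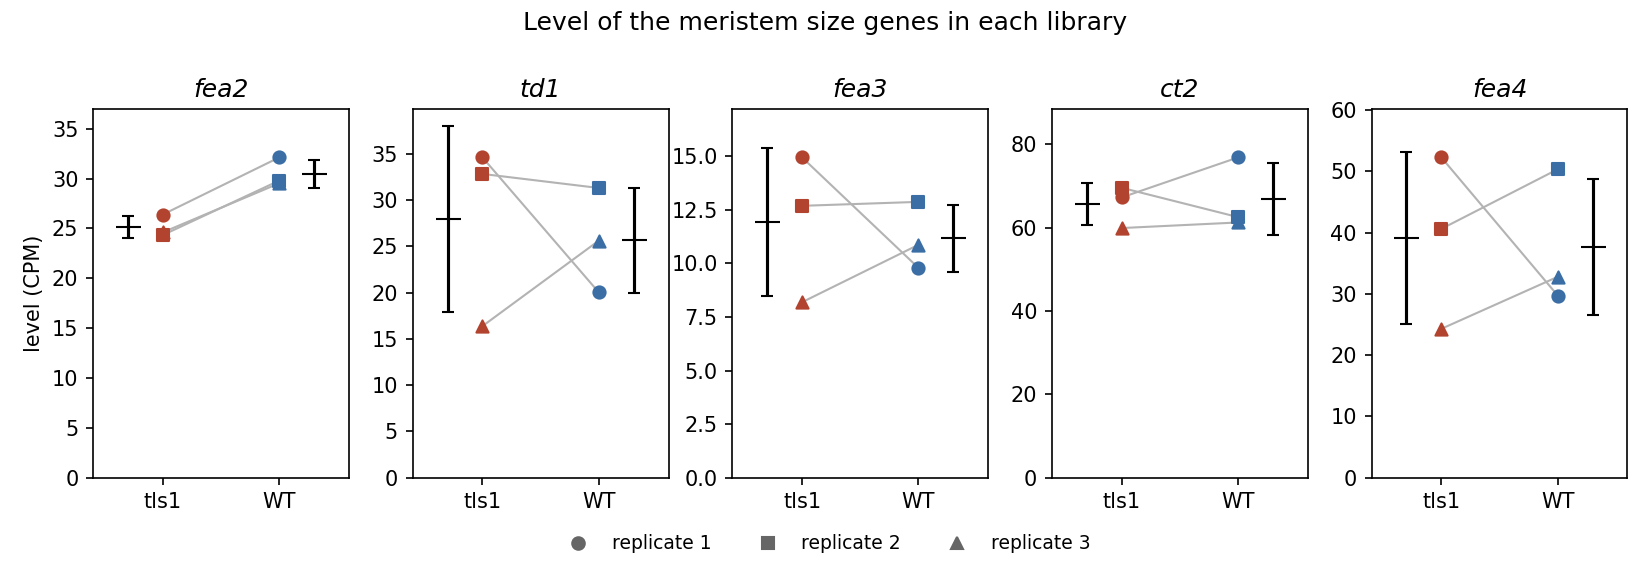
Level in CPM (vertical axes, each from 0) of fea2, td1, fea3, ct2 and fea4 in 3 tls1 libraries (left, red) and 3 WT libraries (right, blue). Symbols mark replicate numbers, grey lines join libraries of 1 number, and black marks with bars give the mean and SD of each genotype. The tls1 and WT libraries are apart for fea2, at 24.3 to 26.4 CPM in tls1 and 29.5 to 32.1 CPM in WT, and overlap for the other 4 genes.

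The receptor gene fea2 had 26.4, 24.3 and 24.6 CPM in tls1 libraries 1, 2 and 3, against 32.1, 29.8 and 29.5 CPM in WT libraries 1, 2 and 3. Every tls1 library lay below every WT library. The exact Poisson intervals of the nearest 2 libraries, 25.2 to 27.6 CPM in tls1 1 and 28.3 to 30.8 CPM in WT 3, did not overlap; such intervals cover counting error only. Among all tested genes, 11.2% had all tls1 libraries below all WT libraries. The level of fea2 averaged 25.1 ± 1.12 CPM in tls1 and 30.5 ± 1.43 CPM in WT (SD, n = 3 each), a mean 17.6% below WT in tls1. The log2 fold change was -0.30 ± 0.069 (SE, 95% interval -0.47 to -0.13), with an unadjusted p of 0.0041 and an adjusted p of 0.148 by edgeR. That adjusted p missed the threshold, and 9.22% of all tested genes had an unadjusted p under 0.05 on the lower side. DESeq2 called fea2 lower in tls1 (log2 fold change -0.29 ± 0.090, adjusted p = 0.0273), in a fit that called 2.44% of its genes lower. Calls of fea2 thus depended on the test used. Leaving out any 1 library gave log2 fold changes from -0.33 to -0.25, and no such fit by edgeR called fea2. Those fits called 0 to 9 of all tested genes higher and 0 to 1 lower, so almost no gene was called in them. That the sign was kept follows from every tls1 library lying below every WT library and is no further support.

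Within pairs, the level of fea2 in tls1 was 17.8% below WT in pair 1, 18.3% below in pair 2 and 16.7% below in pair 3. On the log2 scale of CPM these changes were -0.28, -0.29 and -0.26, a mean of -0.28 ± 0.015 (SD, n = 3 pairs). A lower level in tls1 in 3 of 3 pairs was found in 21.3% of all tested genes. A log2 change of -0.26 or below in all 3 pairs, as fea2 had, was found in 690 genes, 2.96% of those tested. The changes in pairs 2 and 3 lay inside the counting interval of pair 1, which ran from -0.37 to -0.20. Differences between the 3 pairs were 0.029 at most on the log2 scale, and 164 of the 23349 tested genes (0.702%) were as even. This range was narrower than the counting interval of each pair, so evenness of this degree cannot be read as a trait of fea2. The cut behind each of these shares, 2.96% and 0.702%, was a value of fea2 itself, and the comparison of evenness was chosen after the values were seen. With the replicate number as a block, the log2 fold change was -0.30 ± 0.066 (SE, adjusted p = 0.115 by edgeR), so edgeR did not call fea2 with the pairing or without it. That fit called 0 of the 5 genes and 0.694% of all tested genes. The DESeq2 call of fea2 was lost with the block (log2 fold change -0.29 ± 0.10, adjusted p = 0.0546), in a fit that called 0 of the 5 genes and 6.99% of all tested genes.

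**Figure D2:**
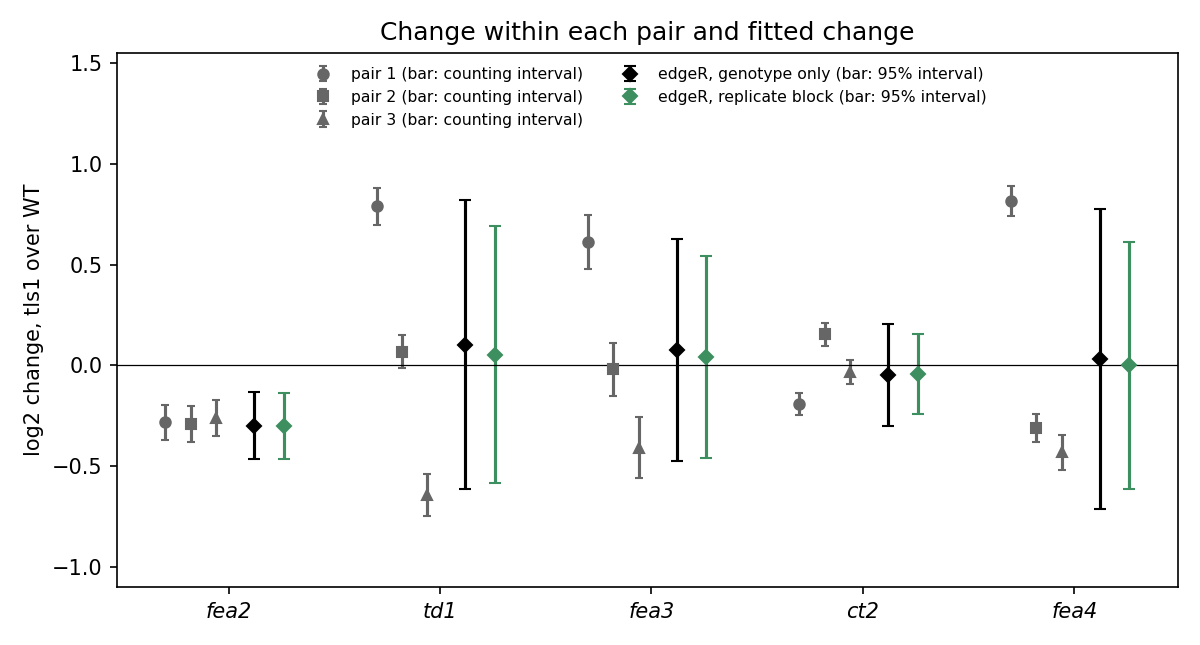
Log2 change of each gene, tls1 over WT (vertical axis), within pairs 1, 2 and 3 (grey, bars are exact 95% counting intervals) and as fitted by edgeR with genotype only (black) and with the replicate block (green, bars are 95% intervals). The 3 pairs of fea2 lie together between -0.29 and -0.26, while td1, fea3 and fea4 are above 0.6 in pair 1 and below -0.4 in pair 3.

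The gene for the G-protein alpha subunit, ct2, had 67.3, 69.6 and 59.9 CPM in tls1 libraries 1, 2 and 3, against 76.9, 62.5 and 61.3 CPM in WT libraries 1, 2 and 3. The highest level was in WT 1 and the lowest in tls1 3, and the genotypes overlapped. It averaged 65.6 ± 5.04 CPM in tls1 and 66.9 ± 8.66 CPM in WT (SD, n = 3 each). The log2 fold change was -0.049 ± 0.11 (SE, 95% interval -0.30 to 0.21, adjusted p = 0.856 by edgeR). The pairs were not of 1 sign, with log2 changes of -0.19 in pair 1, 0.15 in pair 2 and -0.032 in pair 3, the last within counting error. The sign of the fitted change turned to 0.069 without WT 1 and to 0.0046 without tls1 3. Over the 6 libraries ct2 varied the least of the 5 genes, with a coefficient of variation of 9.63%, against 1.42% from counting alone.

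Reads of fea2 can be set against reads of ct2, its partner in signalling, within each library, where sequencing depth cancels. The ratio of fea2 to ct2 reads was 0.392, 0.350 and 0.411 in tls1 libraries 1, 2 and 3, against 0.418, 0.476 and 0.482 in WT libraries 1, 2 and 3. All tls1 libraries lay below all WT libraries, although tls1 3 and WT 1 were close. Of the 10 ratios between members, this was the only one in which the genotypes did not overlap. The level of fea2 alone was already apart by genotype, as in 11.2% of all tested genes, and ct2 varied little. The ratio is thus not evidence separate from the level of fea2, and no share over ratios of other genes was computed. The ratio carries the lengths of both transcripts, so its size says nothing of which protein is more abundant, and the difference was not tested.

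The receptor kinase gene td1 had 34.6, 32.8 and 16.4 CPM in tls1 libraries 1, 2 and 3, against 20.0, 31.3 and 25.6 CPM in WT libraries 1, 2 and 3. The highest and the lowest of the 6 levels, 2.11-fold apart, were both in tls1. Its mean was 27.9 ± 10.04 CPM in tls1 and 25.6 ± 5.64 CPM in WT (SD, n = 3 each), and the difference was smaller than the spread within either genotype. The log2 fold change was 0.10 ± 0.30 (SE, 95% interval -0.62 to 0.82, adjusted p = 0.900 by edgeR). Pair 1 had a log2 change of 0.79, pair 2 of 0.068 and pair 3 of -0.64, and the counting interval excluded 0 in pairs 1 and 3 only. The sign of the fitted change depended on single libraries: it was -0.045 without WT 1, -0.074 without tls1 1 and -0.026 without tls1 2, and the value was 0.28 without WT 2 and 0.37 without tls1 3.

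The receptor gene fea3 had 14.9, 12.7 and 8.19 CPM in tls1 libraries 1, 2 and 3, against 9.79, 12.9 and 10.9 CPM in WT libraries 1, 2 and 3. Here too tls1 1 was highest and tls1 3 lowest, with all WT libraries between them. The mean was 11.9 ± 3.44 CPM in tls1 and 11.2 ± 1.56 CPM in WT (SD, n = 3 each). Its log2 fold change was 0.074 ± 0.23 (SE, 95% interval -0.48 to 0.63, adjusted p = 0.906 by edgeR). Log2 changes were 0.61 in pair 1, -0.021 in pair 2 and -0.41 in pair 3. Pairs 1 and 3 lay on opposite sides of 0 beyond counting error, as for td1. Without WT 1 the fitted change was -0.0087 and without tls1 1 it was -0.11, while it was 0.28 without tls1 3 and 0.19 without WT 2.

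The bZIP gene fea4 had 52.3, 40.6 and 24.3 CPM in tls1 libraries 1, 2 and 3, against 29.7, 50.4 and 32.8 CPM in WT libraries 1, 2 and 3. Again tls1 1 held the highest and tls1 3 the lowest level, 2.15-fold apart. Its mean was 39.1 ± 14.1 CPM in tls1 and 37.6 ± 11.1 CPM in WT (SD, n = 3 each). The fitted log2 fold change was 0.033 ± 0.31 (SE, 95% interval -0.71 to 0.78, adjusted p = 0.971 by edgeR). Log2 changes were 0.81 in pair 1, -0.31 in pair 2 and -0.43 in pair 3, each beyond counting error. These opposite changes averaged 0.024 ± 0.69 (SD, n = 3 pairs). Without pair 1 and with the replicate block, the log2 fold change of fea4 was -0.38 ± 0.076 (SE, adjusted p = 0.0804 by edgeR). Pair 1 was the only pair in which fea4 was higher in tls1. The fit without it called 301 of 23563 genes higher and 132 lower, but not fea4. With the block, the change was 0.18 without pair 2 and 0.23 without pair 3, and neither fit called fea4. The sign also turned without single libraries, to -0.11 without WT 1, -0.23 without tls1 1 and -0.057 without WT 3, against 0.31 without WT 2 and 0.28 without tls1 3.

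**Figure D3:**
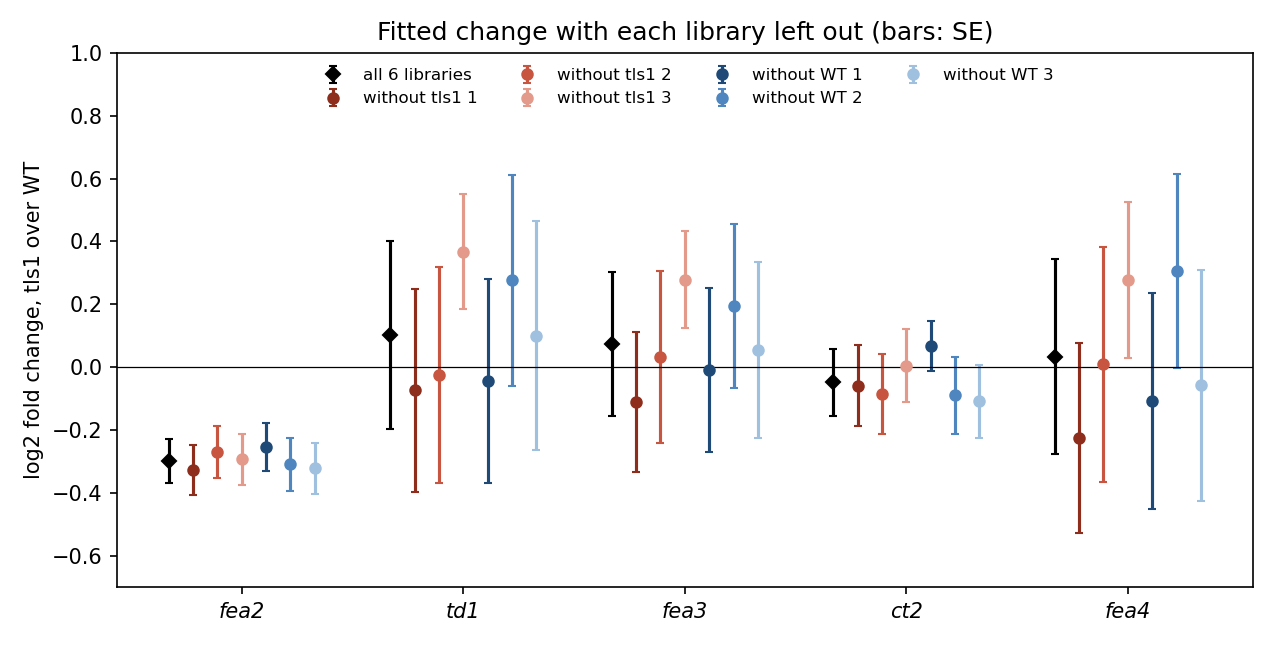
Log2 fold change, tls1 over WT (vertical axis), fitted by edgeR with all 6 libraries (black) and with 1 library left out (red for tls1 libraries, blue for WT libraries), with bars of 1 SE. For fea2, whose genotypes do not overlap, so that the sign is bound to stay, every value lies between -0.33 and -0.25. For td1, fea3, ct2 and fea4 the values lie on both sides of 0.

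Both receptor genes td1 and fea3 and the bZIP gene fea4 shared a profile over the 6 libraries. For fea3 and fea4 the order from high to low was tls1 1, WT 2, tls1 2, WT 3, WT 1 and tls1 3, and for td1 it differed only in that tls1 2 stood above WT 2. The 3 libraries with the highest levels were those on one side of the first principal component, tls1 1, tls1 2 and WT 2, although the component placed tls1 2 first and WT 3 last. Neighbours in the order were often within counting error: fea3 had 12.7 CPM in tls1 2 (interval 11.9 to 13.5) and 12.9 CPM in WT 2 (interval 12.1 to 13.7). The ends were far apart, at 14.1 to 15.8 CPM in tls1 1 and 7.55 to 8.86 CPM in tls1 3 for fea3. The libraries highest and lowest in these 3 genes thus came from 1 genotype. What the libraries share besides genotype and number is not in the labels, and its part in this profile was not tested.

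The shared profile was visible in ratios of reads within a library. The ratio of td1 to fea3 reads was 2.32, 2.59 and 2.00 in tls1 libraries 1, 2 and 3, against 2.04, 2.43 and 2.36 in WT libraries 1, 2 and 3, a range of 1.29-fold. The range was 1.30-fold for td1 to fea4 and 1.32-fold for fea3 to fea4. These ratios thus spread less than the levels of the genes themselves, which spanned 2.11-fold for td1, 1.82-fold for fea3 and 2.15-fold for fea4. Ratios of fea2 to these 3 genes spanned 1.86-fold to 2.16-fold. The ratio of fea2 to fea4 reads, for example, was 0.505, 0.599 and 1.01 in tls1 libraries 1, 2 and 3, against 1.08, 0.592 and 0.900 in WT libraries 1, 2 and 3.

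**Figure D4:**
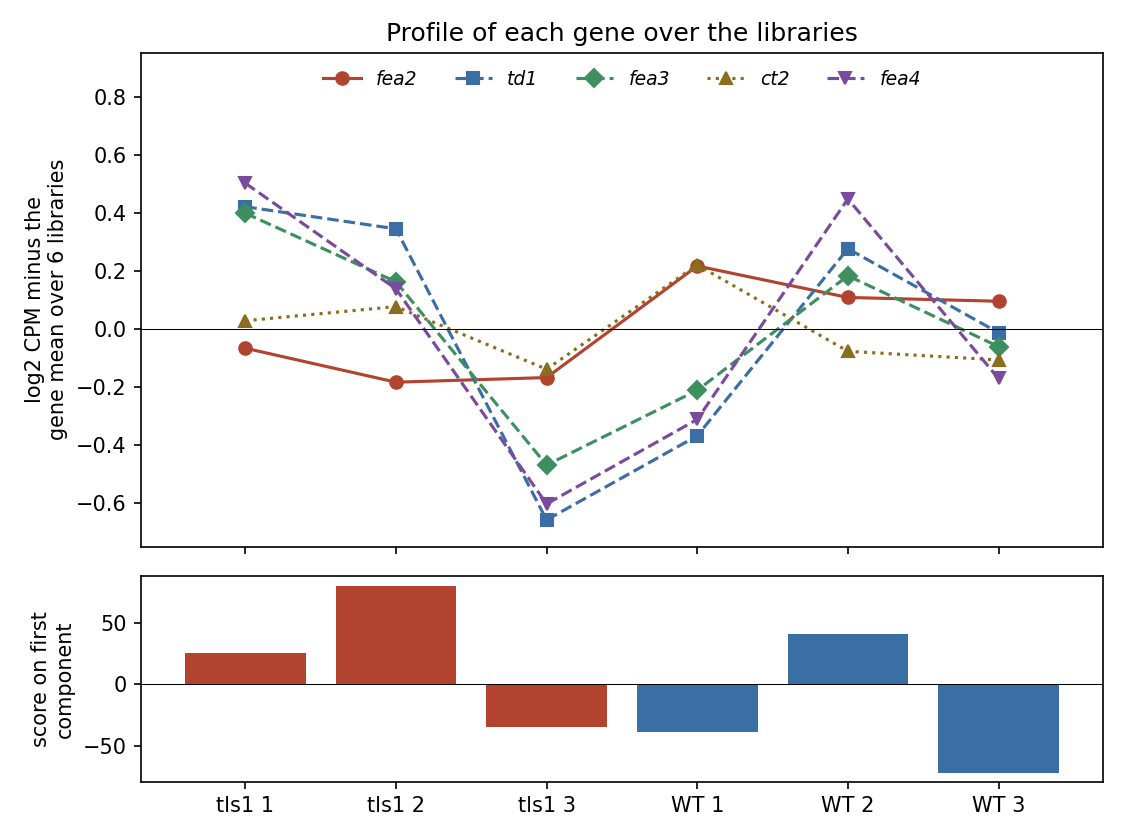
Top, log2 CPM of each gene minus its mean over the 6 libraries (vertical axis) in tls1 libraries 1 to 3 and WT libraries 1 to 3; lines only join the points of 1 gene. Bottom, score of each library on the first principal component of the other tested genes (red, tls1; blue, WT). The profiles of td1, fea3 and fea4 run together, highest in tls1 1 and lowest in tls1 3, apart from those of fea2 and ct2.

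Likeness of profiles was measured as the root mean square difference of log2 (CPM + 0.5) over the 6 libraries, after each gene was centred on its own mean, among 19563 other tested genes with a mean of at least 1 CPM. The difference was 0.13 between td1 and fea4, 0.14 between td1 and fea3 and 0.15 between fea3 and fea4. Seen from td1, fea4 was the 22nd and fea3 the 24th most alike gene of the 19563. Seen from fea4, td1 ranked at 53 and fea3 at 86, and seen from fea3, td1 ranked at 258 and fea4 at 401. By contrast, fea2 and ct2 differed by 0.16, and the ranks were 5991 for ct2 seen from fea2 and 6857 for fea2 seen from ct2. The measure depends on how much a gene varies. Around its own mean, the root mean square was 0.147 for fea2 and 0.123 for ct2, both below their difference. It was 0.388 for td1, 0.272 for fea3 and 0.395 for fea4. These ranks describe the 6 libraries and come with no test.

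The gene most alike to each of the 5 was found in the same way. For fea2 it was Zm00001d007764 (difference 0.030), with 25.7, 23.6 and 23.2 CPM in tls1 libraries 1, 2 and 3, against 32.1, 30.0 and 29.2 CPM in WT libraries 1, 2 and 3. This gene also had all tls1 libraries below all WT libraries. For td1 it was Zm00001d042809 (difference 0.076), for fea3 Zm00001d005208 (0.051), for ct2 Zm00001d027807 (0.025) and for fea4 Zm00001d050190 (0.066). The last had 11.5, 8.15 and 5.39 CPM in tls1 libraries 1, 2 and 3, against 6.40, 10.2 and 6.70 CPM in WT libraries 1, 2 and 3, with tls1 1 again highest and tls1 3 lowest. None of these identifiers is paired with a name in the tables used here.

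The 5 genes differed in how much they varied among all tested genes. The SD of log2 CPM over the 6 libraries was 0.43 for fea4 and 0.43 for td1, larger than in 74.3% and 73.9% of tested genes. It was 0.31 for fea3, larger than in 65.0%. For fea2 it was 0.17 and for ct2 0.13, both under the median of 0.19 over all tested genes. Counting error was a small part of this spread in each gene, with coefficients of variation from 1.42% (ct2) to 3.41% (fea3) from counting and from 9.63% (ct2) to 29.6% (fea4) over the libraries. By size, the log2 fold change of fea2 exceeded that of 71.2% of tested genes, and those of the other 4 genes exceeded between 11.9% (fea4) and 34.4% (td1).

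**Figure D5:**
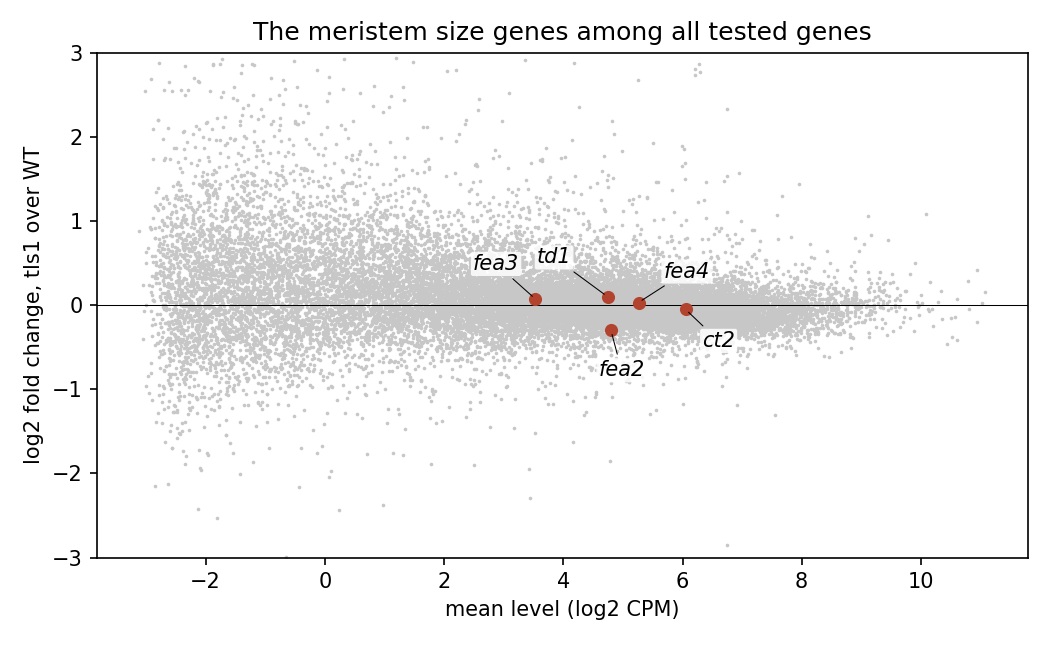
Log2 fold change, tls1 over WT (vertical axis), against mean level in log2 CPM (horizontal axis) for the tested genes (grey) and the 5 meristem size genes (red), as fitted by edgeR; 95 genes beyond 3 in either direction are outside the frame. The 5 genes lie among the grey points, with fea2 at -0.30 and the others between -0.049 and 0.10.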

How the data were processed

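The authors deposited raw read counts per feature, not normalized, for 6 libraries. The submitters' processing notes name cutadapt and STAR. For versions, counting program, strand setting and build, the entry is: not given in the sources used here. Overlapping, antisense or near-identical genes may thus share counts, and no coordinates or sequences are given. CPM is the count over the library's sum. EdgeR 4.0.16 (R 4.3.3; TMM, filterByExpr, genotype only) gave the p-values; SE is the log2 fold change over the root of F. DESeq2 1.42.0 and limma-voom (limma 3.58.1) were alternatives, with other scalings, filters, the replicate block and left-out libraries. The code was tested on simulated data, with independent libraries and changes larger than that of fea2. That test does not cover pairing or changes as small as that of fea2. Intervals (95%, scipy 1.17.1) and floors (3 counts, 0.0387 to 0.0414 CPM) cover counting error only. Deviations from genotype means correlated between same-numbered libraries at 0.415, 0.612 and 0.646 over genes, so numbers were taken to pair libraries on the data alone; the labels do not say so. No 2 libraries agreed within sampling noise (mean chi-square per gene at least 44.0). Between same-numbered libraries it was 44.0 in pair 2 and 46.5 in pair 3, but 127 in pair 1. By this measure WT 1 was nearer to tls1 2 (102) and tls1 3 (85.2) than to tls1 1. In turn, tls1 1 was nearer to WT 2 (71.8) than to WT 1, but not to WT 3 (137). Pair 1 also had the lowest of the 3 correlations, 0.415, so the pairing is least sure there. No label says that each library came from its own plants, so the p-values reflect only spread among these 6 libraries, possibly technical. Named were the 5 members and the most alike gene of each. Members, lists and rules were chosen with earlier results of these data known.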

Additional observations from a re-analysis of the deposited data

How the results depend on the processing

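Each of the 5 genes was refitted under 19 alternatives, of which DESeq2 with the replicate block was chosen after seeing the data. For fea2 the log2 fold change stayed between -0.33 and -0.25 and its adjusted p between 0.0273 and 0.482. It passed the threshold only with DESeq2 without the block (-0.29), so 1 of the 5 genes was called there and 0 in the others. That DESeq2 fit called 5.36% of all tested genes. The others called from 0 of 23911 (without WT 1) to 6.99% (DESeq2 with the block). Adding the replicate block to DESeq2 ended the call of fea2 (adjusted p = 0.0546). The replicate block without pair 1 turned the sign of td1 (-0.29), fea3 (-0.22), ct2 (0.054) and fea4 (-0.38), none called. Leaving out 1 library gave from -0.33 to -0.25 for fea2, from -0.074 to 0.37 for td1, from -0.11 to 0.28 for fea3, from -0.11 to 0.069 for ct2 and from -0.23 to 0.31 for fea4, and with 1 pair left out under the block the ranges were -0.31 to -0.28, -0.29 to 0.41, -0.22 to 0.27, -0.13 to 0.054 and -0.38 to 0.23 in the same order of genes. In pair 1 itself the log2 changes were 0.79 for td1, 0.61 for fea3, -0.19 for ct2 and 0.81 for fea4. Fits with a library or a pair left out also held fewer libraries. The cause of the turned signs was not tested. Scaling and filters turned no sign among the 5 genes. In edgeR, the replicate block over all pairs changed no call of these 5 genes. Its log2 fold changes were -0.30 for fea2, 0.054 for td1, 0.041 for fea3, -0.043 for ct2 and 0.0012 for fea4.

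Over all tested genes, 1 was called higher and 0 lower, against 13 and 0 with no filter, 2 and 0 with limma-voom, 681 and 569 with DESeq2 and 900 and 733 with DESeq2 and the block. The replicate block gave 115 and 47, and 301 and 132, 122 and 37, or 43 and 9 without pair 1, 2 or 3. Leaving out 1 library gave 0 to 9 higher and 0 to 1 lower.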
